A study of Mus musculus with 8 samples.

Results

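Collagen chain genes encode the α chains of the collagen proteins, and 44 of the 21627 protein-coding genes of the mouse RefSeq table (build GRCm38.p6) are named in the pattern Col, a number, a, a number, such as Col4a1. All 44 were taken. Chromatin accessibility at them was read from ATAC-seq of mouse granulosa cells, which nurse the oocyte and make steroid hormones inside the ovarian follicle. In ATAC-seq a transposase inserts sequencing adapters where chromatin is open, and the authors called peaks, intervals with an excess of cut fragments, separately in each of 8 libraries. At 21 days of age the mice were injected with equine chorionic gonadotropin (5 IU of eCG, the hormone of the PMSG label), a stimulus to follicle growth. Some were killed 46 h later, and the rest then had an injection of human chorionic gonadotropin (5 IU of hCG), a ligand of the receptor for luteinising hormone (LH), and were killed after another 6 h.

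In the LH experiment, 2 hCG libraries and 2 PMSG libraries came from wildtype F1 mice (strain label CBA x C57BL/6 F1). In the PR experiment, 2 WT libraries (genotype wildtype) and 2 KO libraries (genotype PR knockout, the progesterone receptor gene Pgr disrupted) carried the strain label C.129S7(B6)-Pgrtm1Bwo/OmcJ, and both groups received eCG and hCG. The labels contradict each other on time. The hCG libraries carry a tag of 0 h and the PMSG libraries a tag of 6 h after hCG, against their titles and source names, which were followed here. All 4 PR libraries carry the 6 h tag, which matches the series' design, and are named pre-ovulatory. Each replicate pooled the cells of 2 to 3 mice, so differences between animals are not seen.

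Collagens are the main structural proteins of extracellular matrix. Their chains wind around each other into a rope-like helix, and the classes differ in what these helices build. Fibrillar collagens form cables in the stroma, type IV collagen forms the sheet-like network of basement membranes, and the multiplexins (types XV and XVIII) sit at the border of basement membrane and stroma. FACIT collagens coat fibrils, type VI forms beaded filaments, type VII anchors epithelium to the tissue below, and transmembrane collagens sit in the cell surface. In the follicle, granulosa cells rest on a basement membrane that contains type IV collagen and is remodelled around ovulation, while fibrillar collagen lies mainly in the theca and stroma outside it. An accessible region at a gene is not a measurement of its transcript.

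The lists held 55654 to 84313 peak intervals per library and covered 29.8 to 43.9 Mb. Intervals over a collagen gene or 10 kb either side numbered 194 and 173 in the hCG libraries, 153 and 162 in the PMSG libraries, 236 and 252 in the WT libraries, and 163 in each KO library. As a share of a library's intervals this was 0.287% ± 0.0129 for hCG, 0.27% ± 0.00833 for PMSG, 0.297% ± 0.0031 for WT and 0.285% ± 0.0113 for KO (SD, n = 2 each). The hCG shares lay above the PMSG shares, and both WT shares lay above the KO shares, but an exact permutation test of 2 libraries against 2 cannot give a two-sided p below 0.333, and no other test of the groups was run. The lists of the hCG and WT libraries were longer than those of their counterparts. Totals and the leading genes are therefore also given with the lists of an experiment reduced to the same number of peaks, the best 57992 (LH) or 55654 (PR) by the authors' −log10 q.

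Most granulosa cell markers had a peak over their start in every library. A start counts as held where a peak overlaps the RefSeq promoter window, from 250 bases before the transcription start to 50 after it. The starts of Fshr, Foxl2, Inhbb and Cyp19a1 were held in all 8 libraries, 4 of the 6 granulosa markers with a promoter entry, while Inha was held in 2 and Nr5a2 in none, although all 6 had a peak within 1 kb of a start in all 8 libraries. Of the 3 theca and stroma markers with an entry, Insl3 and Pdgfra were held in no library, and Tcf21 was held in both hCG libraries, neither PMSG library and all 4 PR libraries. The leukocyte gene Cd68 was held in both hCG libraries only, at folds of 3.21 and 3.78, with Itgam and Ptprc in none, and the endothelial gene Kdr was held in all 8, with Tek and Emcn in none. With all 8 lists reduced to 55654 peaks, Tcf21 was held by neither hCG nor PMSG library, and within 1 kb of its start PMSG replicate 2 also had a peak, while Cd68 was still held by both hCG libraries alone. The smooth muscle gene Acta2 was held in all 8, as was the oocyte gene Ooep, at folds of 13.8 to 19.6, with Bmp15, Ddx4 and Zp3 in none. Over gene bodies and flanks, 6 of 23 regions at the endothelial markers were hCG-only (26.1%, against 16.7% at other genes) and 7 of 27 WT-only (25.9%, against 11.8%), and in lists of equal length 3 of 21 (14.3%, against 14.7%) and 2 of 18 (11.1%, against 2.69%). The theca and stroma markers had 2 of 14 hCG-only and 1 of 20 WT-only. The granulosa markers had 10 hCG-only (16.1%) and 11 PMSG-only (17.7%, against 8.9%) of 62 regions, and in lists of equal length 13 of 60 PMSG-only (21.7%, against 11.7%) and 4 of 61 KO-only (6.56%, against 2.21%). Cd68 in both settings, Tcf21 with all peaks and the endothelial regions with all peaks thus moved with the hCG group, the endothelial regions also with WT, the granulosa regions moved with PMSG and, in equally long lists, with KO, and the part of other cell types in the hCG and WT results below was not tested. Fewer cells of a type and less open chromatin per cell cannot be told apart in pooled cells.

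Few collagen starts differed between groups. RefSeq promoter entries matched 35 of the 44 genes, with 38 windows. A start was held in all 8 libraries for 18 of the 35 genes (51.4%, against 58.6% of 17238 other genes) and in none for 11 (31.4%, against 36.5%). With all 8 lists reduced to the same number of peaks, 16 were held in all 8 (45.7%, against 57.9%) and 2, Col6a4 and Col19a1, were PMSG-only (5.71%, against 0.429%). Among all peaks, Col19a1 had a peak within 1 kb of its start in all 8 libraries. Starts held throughout were those of Col1a2, Col5a1, Col5a3, Col11a1, Col24a1 and Col27a1 (fibrillar), Col4a1, Col4a2, Col4a4 and Col4a5 (basement membrane), Col8a1 and Col8a2 (hexagonal networks), Col6a1 and Col6a2 (beaded filament), Col16a1 (FACIT), Col23a1 and Col25a1 (transmembrane) and Col18a1. Starts held in no library were those of Col3a1, Col6a3, Col6a5, Col6a6, Col28a1, Col9a1, Col20a1, Col10a1, Col13a1, Col17a1 and Col15a1. Col1a2 of type I and Col3a1 of type III, collagens that often occur in the same fibrils, thus differed at their start windows, and Col1a1 has no entry. A region 2.51 kb inside Col3a1, chr1:45313872-45314216, was held by all 8 libraries at folds of 7.18 to 10.7.

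**Figure D1:**
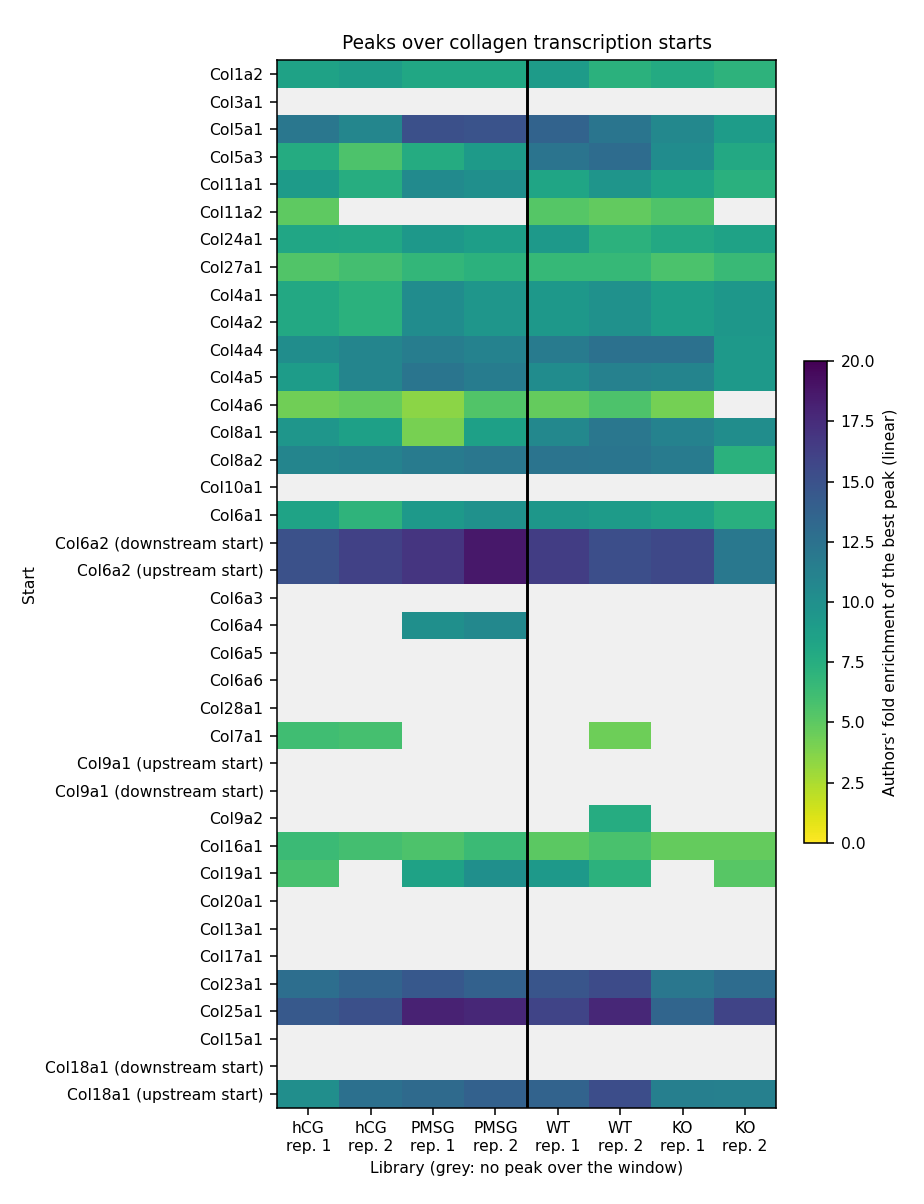
Peaks over the transcription starts of collagen genes with a RefSeq promoter entry, by library; colour is the authors' linear fold enrichment of the best peak over the window and grey means that no peak overlaps it. Most rows are filled or empty across all 8 libraries, and Col7a1 and Col6a4 are the rows held by both libraries of only 1 group of the LH experiment.

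The authors' fold enrichment, a linear ratio of fragments in the peak over the local background, describes how high a held start stood. Among the higher were Col6a2, with 12 to 18.7 over the 8 libraries, and Col25a1, with 13.5 to 18.1. At the Col1a2 start it was 8.51 and 8.85 in the hCG libraries, 8.08 and 8.10 in PMSG, 9.04 and 7.24 in WT, and 7.80 and 7.09 in KO. At this gene, which encodes a chain of type I collagen, the hCG folds lay slightly above the PMSG folds and the WT and KO folds overlapped. Col4a6 was held in 7 libraries, missing KO replicate 2, Col19a1 in 6, Col11a2 in 4 and Col9a2 in WT replicate 2 alone.

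In the LH experiment both hCG libraries but no PMSG library held the start of 1 collagen gene, Col7a1, against 0.986% of other genes. Both PMSG libraries but no hCG library held that of 1, Col6a4, against 0.238%. In the PR experiment no collagen start divided the groups in this way, against 0.702% of other genes for WT and 0.0058% for KO. Within 1 kb of the start, 2 collagen genes, Col7a1 and Col15a1, were hCG-only (5.71% of 35, against 0.957% of other genes). Col7a1 encodes type VII collagen of the anchoring fibrils. The region over its start, chr9:108953194-108953751, had folds of 6.15 and 5.93 in the hCG libraries, and in the PR experiment only WT replicate 2 held it, at 4.45. Col6a4 encodes an alternative type VI chain, and the region over its start, chr9:106096589-106097036, had folds of 10 and 10.7 in the PMSG libraries and was held by no other library.

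The 250 bases before these starts are shown because the starts divide the groups of the LH experiment, and those of Col1a2 and Col18a1 because they contrast with them: Col1a2 is held throughout, and of the Col18a1 starts the upstream one is held in all 8 libraries and the downstream one in none. They are RefSeq sequences of GRCm38.p6 on the gene's strand, 5′ to 3′, for Col7a1 chr9:108953336-108953585, Col6a4 chr9:106096692-106096941, upstream Col18a1 chr10:77166531-77166780, downstream Col18a1 chr10:77113706-77113955 and Col1a2 chr6:4505368-4505617. Capitals mark matches to the motifs listed after them.
Col7a1: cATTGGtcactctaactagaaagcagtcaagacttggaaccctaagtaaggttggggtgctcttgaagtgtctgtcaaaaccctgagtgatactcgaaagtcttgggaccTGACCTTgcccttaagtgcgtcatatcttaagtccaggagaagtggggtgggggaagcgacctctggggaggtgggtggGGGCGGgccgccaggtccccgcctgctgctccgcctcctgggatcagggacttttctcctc
Col6a4: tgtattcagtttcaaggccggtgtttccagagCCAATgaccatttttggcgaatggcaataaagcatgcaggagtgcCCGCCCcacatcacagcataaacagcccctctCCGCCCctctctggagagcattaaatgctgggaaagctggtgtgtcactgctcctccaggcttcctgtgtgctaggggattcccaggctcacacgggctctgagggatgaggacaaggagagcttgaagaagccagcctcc
Col18a1 upstream: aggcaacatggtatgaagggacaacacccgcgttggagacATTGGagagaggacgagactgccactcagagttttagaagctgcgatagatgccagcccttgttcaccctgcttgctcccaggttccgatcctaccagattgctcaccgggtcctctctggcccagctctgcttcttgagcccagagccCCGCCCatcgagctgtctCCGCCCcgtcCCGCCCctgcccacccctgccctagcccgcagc
Col18a1 downstream: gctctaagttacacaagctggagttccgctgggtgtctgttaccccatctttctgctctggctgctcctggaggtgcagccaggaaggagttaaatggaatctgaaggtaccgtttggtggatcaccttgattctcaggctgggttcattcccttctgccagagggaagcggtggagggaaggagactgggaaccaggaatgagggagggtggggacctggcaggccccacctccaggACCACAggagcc
Col1a2: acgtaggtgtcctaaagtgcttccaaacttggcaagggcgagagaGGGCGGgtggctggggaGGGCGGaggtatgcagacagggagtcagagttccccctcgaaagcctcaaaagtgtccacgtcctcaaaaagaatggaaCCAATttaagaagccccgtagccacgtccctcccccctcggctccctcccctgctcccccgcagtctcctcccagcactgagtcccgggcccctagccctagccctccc

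The capitals in Col7a1 are a CCAAT box whose first base is at -249, an AAGGTCA motif at -140 and a GC box (GGGCGG) at -61, all counted from the transcription start, with matches on either strand. Col6a4 has a CCAAT box at -218 and GC boxes at -173 and -141. The upstream start of Col18a1, held throughout, has GC boxes at -61, -43 and -33 and a CCAAT box at -210, whereas the downstream start, where no list has a peak, has none of these and a single RUNX core (TGTGGT) at -12. Col1a2 has GC boxes at -205 and -188 and a CCAAT box at -109. A match is a string of letters and was not measured as a binding site.

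Over the whole 300-base windows, both strands, a GC box stood in 23 of the 38 collagen windows (60.5%) and in 46.6% of 21006 other windows. AAGGTCA, a motif of the NR5A receptors, which act in steroid-producing cells, stood in 5 (13.2%) against 4.04%. Other motifs were about as common or less common: CCAAT in 34.2% against 38.5%, TATAAA in 13.2% against 12.7%, TGTGGT in 7.89% against 14.8%, AGAACA, part of the element of steroid receptors, in 5.26% against 16.3%, TGANTCA in 2.63% against 7.05% and AGATAA in 5.26% against 9.69%. TGACGTCA (2.63% against 2.26%) and GTAAACA (2.63% against 3.03%) were each in 1 collagen window. Base composition varied with the number of libraries that held a start. Median GC content was 63.3% in the 19 windows held in all 8 libraries, 57.5% in the 6 held in some and 52.3% in the 13 held in none, with 56.7% in the windows of other genes.

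Away from the starts, accessible regions were counted. Intervals of an experiment's 4 libraries that share a base were merged, and a merged region present in both libraries of a group and absent from both of its counterpart is named for that group, for example hCG-only or KO-only. In the LH experiment 233 regions lay at 41 of the 44 genes, and Col10a1, Col22a1 and Col26a1 had none. Of these, 48 (20.6%, 95% Wilson interval 15.9 to 26.3) were hCG-only, against 16.7% at the other protein-coding genes, 24 (10.3%, 7.02 to 14.9) were PMSG-only, against 8.9%, and 110 were held by all 4. With the same number of peaks, 39 of 219 (17.8%, 13.3 to 23.4, against 14.7%) were hCG-only and 31 (14.2%, 10.2 to 19.4, against 11.7%) PMSG-only. These intervals cover counting error only, and each of them holds the share of the other genes. The gap to other genes for hCG-only regions varied with the setting. It was narrower with 50 kb flanks (19.5% against 17.2%) and with −log10 q of at least 20 (20.9% against 18.1%), and wider with 24.1% against 12.9% for the 20000 best peaks (13 of 54), 29.2% against 22.4% where a library had to cover 50% of a region, and 27.8% against 21.7% without hCG replicate 2. Of the regions held by 1 group only, 66.7% were hCG-only, against 65.3% at other genes.

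**Figure D2:**
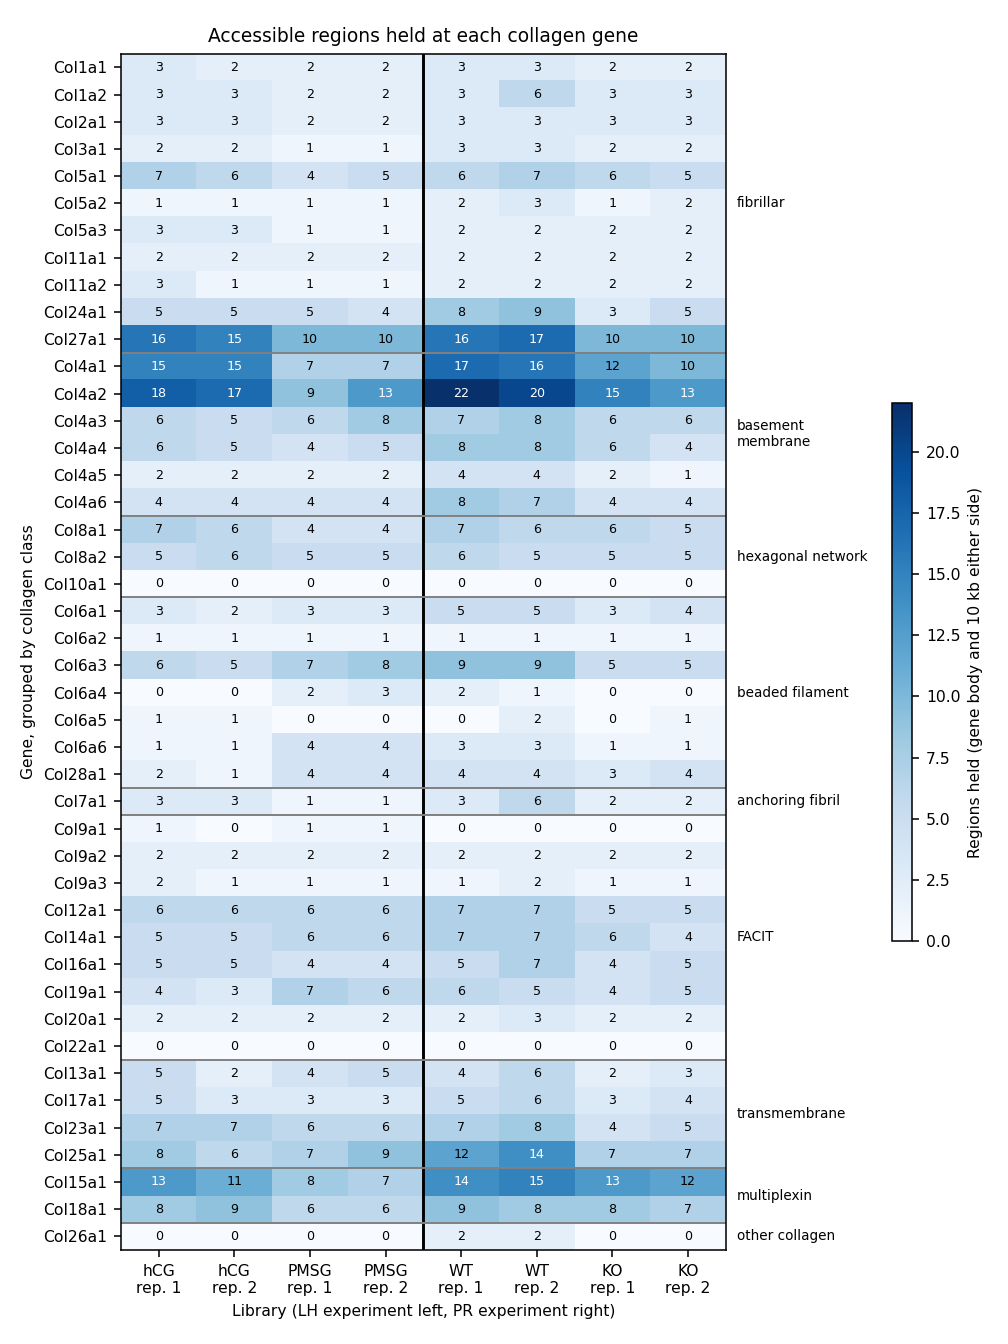
Number of accessible regions (gene body and 10 kb either side) held at each of the 44 collagen genes in each library, genes grouped by class; darker blue is more regions. The hCG and PMSG columns differ most at Col4a1, Col4a2, Col27a1 and Col15a1, and in the other direction at Col6a6, Col19a1, Col6a4 and Col28a1.

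At least 1 hCG-only region lay at 18 genes, against 30.6% of other genes, and at least 1 PMSG-only region at 17, against 18.8%. Collagen genes are long, with a median of 114 kb against 17.3 kb, and have 3.68 regions per 100 kb against 4.09, and over the 44 genes length and the number of LH regions had a Spearman correlation of 0.344 (0.401 for PR regions), given as a description because they share libraries. Only hCG-only regions were found at 10 genes, only PMSG-only at 9, both at 8, and neither at 14 that had regions. The 14 included Col1a1, Col5a2, Col11a1 and Col11a2 among the fibrillar chains and Col9a1, Col9a2, Col9a3, Col12a1 and Col20a1 among the FACITs.

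The counts varied between classes of collagen, and the differences between classes were not tested. The shares at other genes to read them against are 16.7% hCG-only and 8.9% PMSG-only with all peaks, and 14.7% and 11.7% in lists of equal length. Of 50 regions at the 6 type IV genes, 18 (36%, 24.1 to 49.9) were hCG-only and 5 PMSG-only, and of 56 at the 11 fibrillar genes, 17 (30.4%, 19.9 to 43.3) and 4. At the multiplexins Col15a1 and Col18a1, 6 of 23 (26.1%) were hCG-only and 0 PMSG-only, where a count of 0 allows up to 13%. The beaded filament genes (type VI and Col28a1) were the reverse, with 1 of 25 hCG-only and 10 (40%, 23.4 to 59.3) PMSG-only. FACIT genes had 1 and 3 of 32, transmembrane genes 1 and 1 of 30, and hexagonal network genes 2 and 1 of 14, with FACIT PMSG-only (9.38%) and hexagonal hCG-only (14.3%) shares close to those at other genes. The type IV, fibrillar, multiplexin and beaded filament genes had, in lists of equal length, 15, 15, 4 and 0 hCG-only regions and 7, 5, 0 and 12 PMSG-only regions. With a library left out, a group-only call needs fewer libraries, so such counts tend to rise at any genes. Other genes then had 18.8% to 21.7% hCG-only and 10.1% to 12.2% PMSG-only regions. Leaving out each library in turn gave 18 to 22 hCG-only regions at type IV genes, 17 to 24 at fibrillar genes and 6 to 8 at multiplexins. PMSG-only regions at beaded filament genes numbered 10 to 11. Small counts shifted too: without hCG replicate 2 the transmembrane genes had 6 hCG-only regions, and without PMSG replicate 1 they had 5 PMSG-only regions. Without hCG replicate 1 or PMSG replicate 2 the FACIT genes had 5 PMSG-only regions. The FACIT genes had 1 to 3 hCG-only regions over the libraries left out, and the multiplexins had 2 PMSG-only regions without hCG replicate 1.

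**Figure D3:**
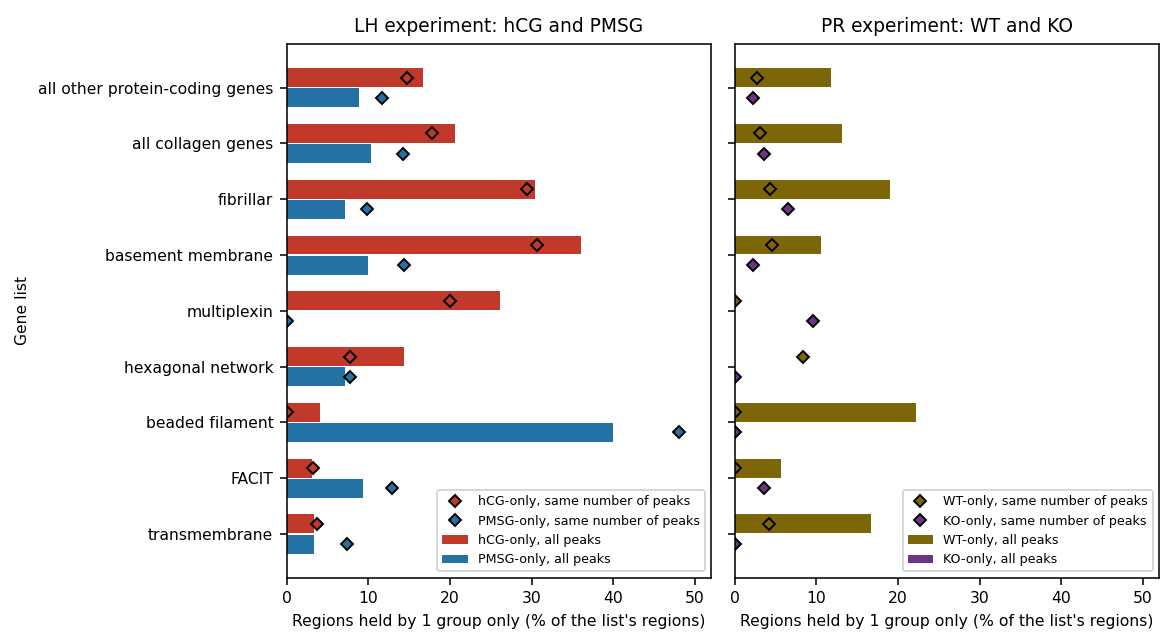
Share of each class's regions that were held by both libraries of 1 group and neither of the other, in the LH experiment (left) and the PR experiment (right); bars use all peaks and diamonds the same number of peaks in each list of an experiment. Bars and diamonds agree in order in the left panel for the basement membrane, fibrillar, multiplexin and beaded filament classes, while in the right panel the WT-only diamonds lie far below the bars except in the multiplexin and hexagonal network classes, which have no WT-only region with all peaks. Col7a1 and Col26a1, each alone in its class, are not drawn.

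The hCG-only regions of the type IV genes lay mainly at Col4a1 and Col4a2, which encode the chains of the most widespread basement membrane collagen and are neighbours on chromosome 8 (Col4a1 11198423 to 11312889, Col4a2 11312805 to 11449287). Of 32 regions over the pair, the hCG libraries held 30 and 29 and the PMSG libraries 14 and 18. There were 14 hCG-only regions, 2 PMSG-only and 12 held by all 4. In lists of equal length the libraries held 27 and 28 against 14 and 18 of 31 regions, with 11 hCG-only and 2 PMSG-only. By gene, Col4a1 had 9 hCG-only of 16 regions and Col4a2 had 6 of 19, with 3 regions shared, and where a library had to cover 50% of a region to hold it, Col4a2 had 11.

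**Figure D4:**
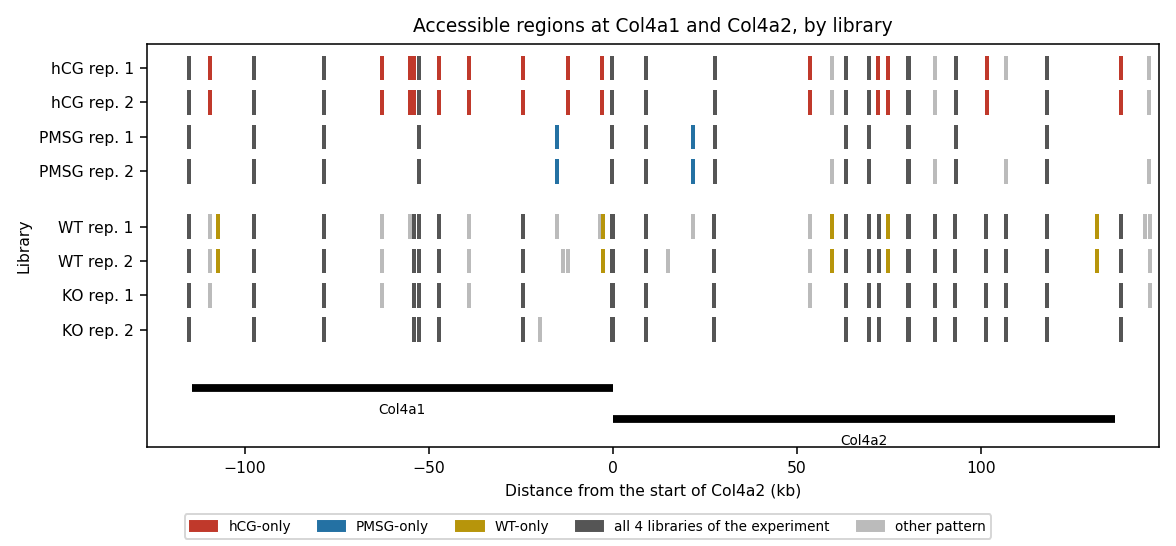
Accessible regions of each library along Col4a1 and Col4a2, by distance from the start of Col4a2 in kb; black bars are the genes, and blocks are merged regions, widened to be visible where short and coloured by which libraries of the experiment held them. Of the 14 hCG-only regions (red) most lie inside the genes, away from the shared start at 0, which all 8 libraries held.

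These genes share a start region. Col4a1 is read from the minus strand from base 11312826 and Col4a2 from the plus strand from base 11312805, so that the RefSeq starts overlap by 22 bases. The shared bases, chr8:11312805-11312826 in GRCm38.p6, plus strand, are shown because 1 open region serves both starts, with the GC box in capitals.
Col4a1 and Col4a2: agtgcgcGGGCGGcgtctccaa
The region over these starts was held in all 8 libraries, with folds of 7.96 and 7.22 (hCG), 10.3 and 9.46 (PMSG), 9.32 and 9.88 (WT) and 8.75 and 9.40 (KO). The PMSG folds were above the hCG folds here, while the additional hCG regions lay elsewhere in the genes. The other type IV pairs did not share the pattern: at Col4a3 and Col4a4, of kidney basement membrane, the hCG libraries held 10 and 9 of 13 regions and the PMSG libraries 8 and 10, and at Col4a5 and Col4a6 each library held 4 of 5. Col4a4 alone had 3 hCG-only and 1 PMSG-only region.

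The multiplexin Col15a1 encodes type XV collagen of the basement membrane zone and spans 47207655 to 47313167 on chromosome 4. Of its 14 regions the hCG libraries held 13 and 11 and the PMSG libraries 8 and 7. Its 4 hCG-only regions lay 0.46, 11, 23.5 and 54.3 kb inside the gene from its start, and the first of them, chr4:47208196-47208747, had folds of 4.56 and 6.06. Among all hCG-only regions at collagen genes the best ranks were those of the second of these, chr4:47218649-47219314, with folds of 14.4 and 15.0. All 4 PR libraries held it, at 17.2 and 17.8 in WT and 14.6 and 9.47 in KO, but none held the region beside the start. In lists of equal length hCG replicate 2 alone held that region beside the start, 3 hCG-only regions were left, and the libraries held 10 and 8 against 8 and 7 of 12 regions, so that the groups touched at 8. At Col18a1, whose C-terminal fragment is endostatin, the hCG libraries held 8 and 9 of 9 regions and the PMSG libraries 6 and 6, with 2 hCG-only regions, or 1 with the same number of peaks.

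Among the fibrillar genes Col27a1 had the most group-only regions. It encodes a fibrillar chain known from cartilage and spans 63214009 to 63334991 on chromosome 4. The hCG libraries held 16 and 15 of its 18 regions and the PMSG libraries 10 and 10, with 6 hCG-only regions and 1 PMSG-only, and again 6 and 1 in lists of equal length. The PMSG-only region, chr4:63255927-63256540, had folds of 14.1 and 15.1. It lay within 1 kb of an hCG-only region, chr4:63255458-63255783, which is 1 of the 6. In the equally long PR lists 1 merged region, chr4:63255458-63256578, spanned both. Both hCG lists (folds 6.61 and 7.46) and both PMSG lists (14.1 and 15.1) overlapped it. Both groups thus had a peak within this span, and the calls differ in where the peaks lay. Col5a1, whose chain starts the assembly of type I fibrils, had 3 hCG-only and 1 PMSG-only of 10 regions, with 7 and 6 held by hCG against 4 and 5 by PMSG. Without hCG replicate 2, which loosens the rule, the count was 5 hCG-only, and with the same number of peaks it was 2 and 2. Col24a1, a fibrillar chain known from bone, had 3 hCG-only and 2 PMSG-only of 8 regions, held as 5 and 5 against 5 and 4. Its leading region, chr3:145307138-145307672, 14.9 kb inside the gene, had hCG folds of 13.5 and 14.4 and was held by all 4 PR libraries.

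The major fibrillar chains had few regions. Col1a1 had 3, of which the hCG libraries held 3 and 2 and the PMSG libraries 2 and 2, and none was group-only. Col1a2 had 3, held as 3 and 3 against 2 and 2, and its hCG-only region, chr6:4530908-4531867, lay 25.8 kb inside the gene with folds of 14.2 and 12.8. Col3a1 had 2, held as 2 and 2 against 1 and 1, and its hCG-only region, chr1:45355892-45356529, lay in the flank beyond the gene with folds of 12.5 and 11.2. All 4 PR libraries held both of these regions, and at these genes the difference was 1 region each. Col7a1 had 3 regions, held as 3 and 3 against 1 and 1. Its hCG-only region away from the start was chr9:108982217-108983081, 29.1 kb downstream, with folds of 10.1 and 11.3. This region also lay at the genes Pfkfb4 and Ucn2.

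Of the 24 PMSG-only regions, 10 lay at beaded filament genes. Col6a4, Col6a5 and Col6a6 encode alternative chains to that of Col6a3 and lie in a row on chromosome 9. Of 8 regions there the hCG libraries held 2 and 2 and the PMSG libraries 6 and 7, with 5 PMSG-only and 1 hCG-only. In lists of equal length the counts were 0 and 1 against 6 and 7, with 6 PMSG-only and no hCG-only. Col6a6 alone was held as 1 and 1 against 4 and 4 of 4 regions (0 and 0 against 4 and 4, with 4 PMSG-only, in lists of equal length), and Col6a4 as 0 and 0 against 2 and 3 of 3. Col6a3 had 2 PMSG-only of 8 regions, Col6a1 had 1 of 4, and Col6a2 had 1 region, held by all. Col28a1, which encodes a chain with the von Willebrand type A domains of type VI, had 2 PMSG-only of 4 regions, held as 2 and 1 against 4 and 4, and 3 in lists of equal length.

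**Figure D5:**
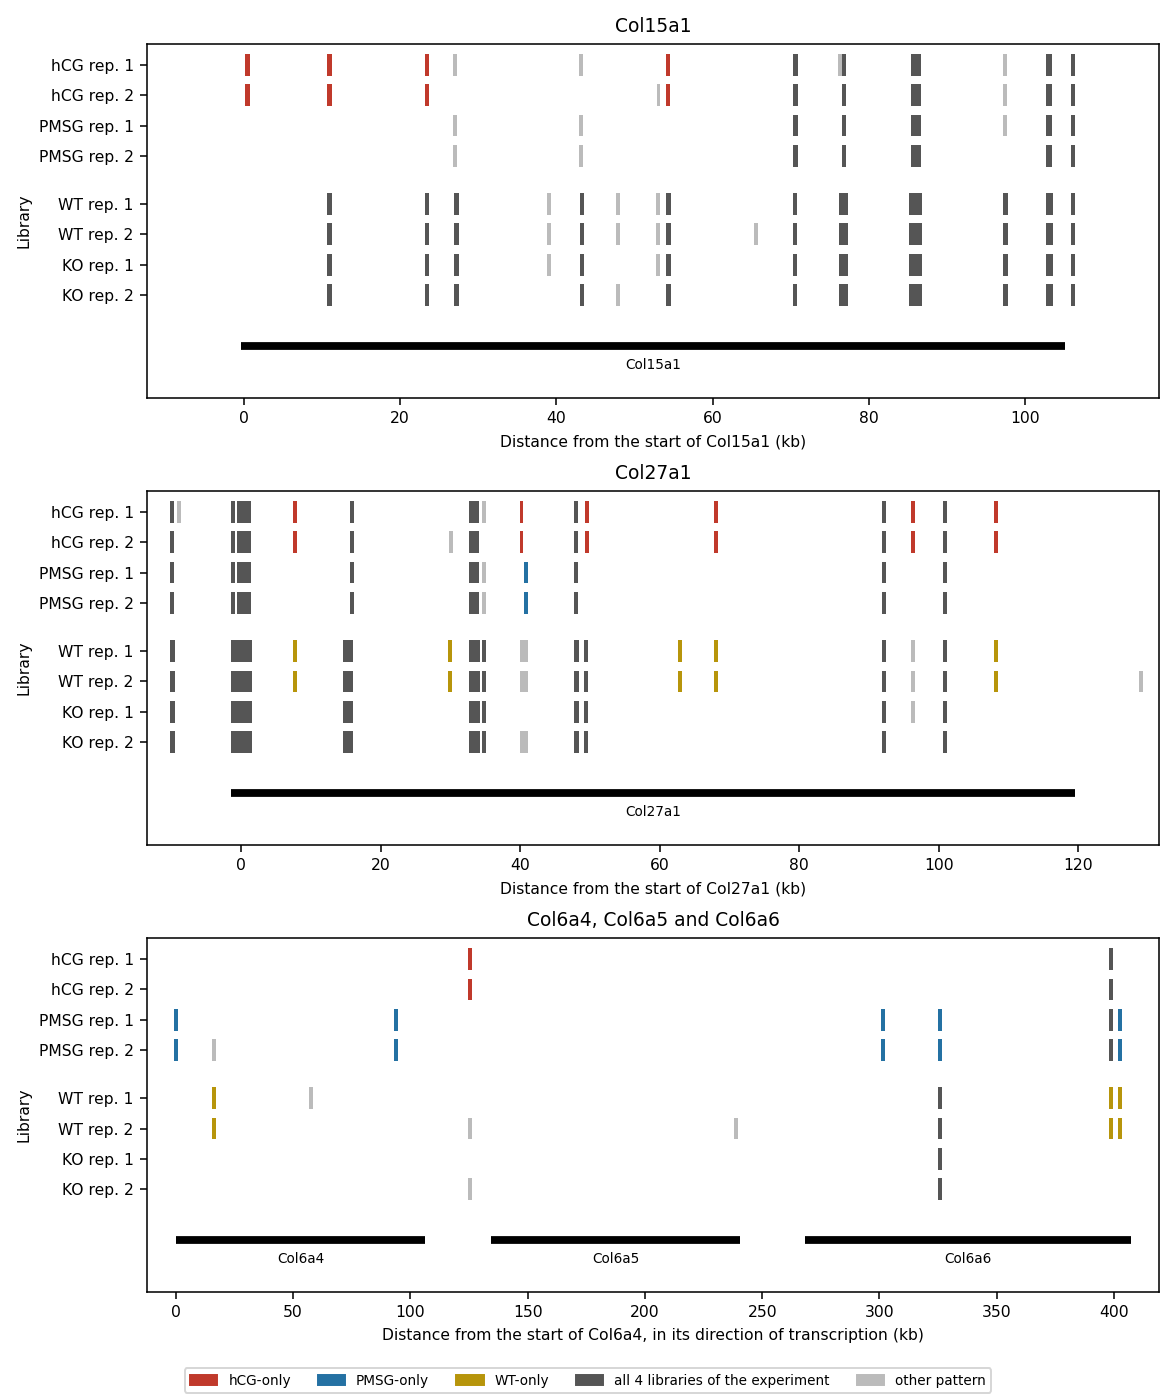
Accessible regions of each library along Col15a1, Col27a1 and the row Col6a4, Col6a5 and Col6a6, by distance in kb from the start of the first-named gene in its direction of transcription; blocks are merged regions, widened to be visible where short, coloured by which libraries held them, and black bars are the genes. Red hCG-only blocks lie along Col15a1 and Col27a1, and blue PMSG-only blocks along Col6a4 and Col6a6, including the start of Col6a4.

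The PMSG-only region with the best ranks lay at the FACIT gene Col19a1, known from basement membrane zones of muscle and nerve, at chr1:24522213-24522790. Its folds were 18.3 and 18.9 in the PMSG libraries, 17.4 and 6.05 in WT and 7.70 and 10.3 in KO. Col19a1 had 2 PMSG-only and no hCG-only of 7 regions, held as 4 and 3 by hCG and 7 and 6 by PMSG, and 3 PMSG-only with the same number of peaks. Col25a1, a transmembrane collagen of neurons, spans 420 kb and had 11 regions, held as 8 and 6 against 7 and 9, with 1 PMSG-only, or 3 without PMSG replicate 1. Its groups overlapped. The region chr16:57639384-57639715 at Col8a1, a hexagonal network chain, ranked 3 among the PMSG-only regions of different genes, after those of Col19a1 and Col27a1, with folds of 13.1 and 14.8, and was held by WT replicate 1 (8.58) and KO replicate 2 (5.68).

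Group-only regions were lower and shorter than those held throughout, which follows at least in part from the definitions. A region absent from 2 lists tends to lie near the caller's threshold, and a merged region spans the intervals of every library that holds it. No values for other genes stand beside these. The median rank percentile of the fold within a library (100 the highest) was 38.2 for the 48 hCG-only regions, 36.6 for the 24 PMSG-only and 52.3 for the 110 held by all 4, and the median lengths were 349, 276 and 642 bp. Most lay inside the gene, 44 of 48 and 22 of 24, as did 93 of the 110. A gene other than a collagen gene was also assigned to 4 of the 48, 2 of the 24 and 12 of the 110. Only 2 of each group-only set lay within 1 kb of a gene end, against 27 of those held by all 4.

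In the PR experiment 267 regions lay at 41 genes, and Col9a1, Col10a1 and Col22a1 had none. With all peaks 35 (13.1%, 9.58 to 17.7) were WT-only, against 11.8% at other genes, 0 were KO-only, against 0.0703%, and 142 were held by all 4. A count of 0 among 267 allows up to 1.12%. WT-only regions lay at 20 genes, against 27.2% of other genes. With the same number of peaks 6 of 195 (3.08%, against 2.69%) were WT-only and 7 (3.59%, against 2.21%) KO-only, so the lean towards WT was not seen when the lists were equally long. The WT lists were 80137 and 84313 intervals long and the KO lists 58851 and 55654. Leaving out a library loosens the rule of a group-only call, so such counts tend to rise at any genes. WT-only regions were 70 (27.9%, against 24.2% at other genes) without WT replicate 1 and 53 (22.6%, against 21%) without WT replicate 2. They were 56 (20.8%, against 19.3%) without KO replicate 1 and 49 (18.5%, against 15.6%) without KO replicate 2. There were 2 KO-only regions (0.743%, against 0.483%) without KO replicate 1.

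By class, WT-only regions with all peaks were 11 of 58 at fibrillar, 7 of 66 at type IV, 6 of 27 at beaded filament, 6 of 36 at transmembrane and 2 of 35 at FACIT genes. As shares these were 19%, 10.6%, 22.2%, 16.7% and 5.71%, against 11.8% at other genes. At the multiplexins there were 0 of 24 (1 to 3 when a library was left out), and 18 of those regions were held by all 4 libraries. The WT-only and KO-only counts from equally long lists, where other genes had 2.69% and 2.21%, were 2 and 3 at fibrillar, 2 and 1 at type IV, 1 and 0 at transmembrane, 1 and 0 at hexagonal network, 0 and 1 at FACIT and 0 and 2 at multiplexin genes, and none at beaded filament genes. The hexagonal network region lay at Col8a1 and was not WT-only with all peaks. Leaving out a library loosened the WT-only rule, and other genes then had 24.2% and 21% without WT replicates 1 and 2. Without KO replicates 1 and 2 other genes had 19.3% and 15.6%. Without WT replicate 1 the fibrillar genes had 19 WT-only regions, the type IV genes 16, the transmembrane genes 13 and the FACIT genes 7. Without WT replicate 2 and without KO replicate 1 the type IV genes had 16 and 15, and without KO replicate 2 the transmembrane genes had 10. Without any 1 of the other 3 libraries the FACIT genes had 4.

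Col27a1 had the most WT-only regions with all peaks. The WT libraries held 16 and 17 of its 17 regions and the KO libraries 10 and 10, with 5 WT-only, and with the same number of peaks 13 and 15 against 10 and 10 of 15, with 2 WT-only. The WT-only region with the best ranks at any collagen gene was here, chr4:63283380-63283550, 68.1 kb inside the gene, with folds of 9.85 and 12.1 in WT. The hCG libraries held it at 11.7 and 10.8 and the PMSG libraries did not. It was WT-only and hCG-only in both settings, so that the call at this region was the same with lists of equal length.

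At Col4a1 and Col4a2 the WT libraries held 35 and 33 and the KO libraries 25 and 21 of 39 regions, with 5 WT-only, but with the same number of peaks 26 and 24 against 24 and 21 of 28, with 2 WT-only. The groups touched in the second setting, at 24, and the WT-only count with all peaks was 8 without WT replicate 1 and 10 without WT replicate 2 or KO replicate 1. Col24a1 had 3 WT-only regions (8 and 9 against 3 and 5 of 9) and Col25a1 had 3 (12 and 14 against 7 and 7 of 15), and neither had any with the same number of peaks. Leaving out a library gave 5 for Col24a1 (KO replicate 2) and 6 for Col25a1 (WT replicate 1). Col7a1 had 1 WT-only of 6 regions, and 4 without WT replicate 1. Col26a1, with no region in the LH experiment, had 2 regions, both WT-only with folds of 3.77 to 6.64. Further well-ranked WT-only regions were chr1:45432036-45432194 at Col5a2 (folds 7.54 and 7.24, in no LH library) and chr10:61980554-61980701, at -1.52 kb from the start of Col13a1 (6.73 and 7.84, also in PMSG replicate 2 at 9.82). None of these calls held in lists of equal length, where Col26a1 had no region and the Col5a2 and Col13a1 regions were held by WT replicate 1 and WT replicate 2 alone.

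Other genes showed no WT-only region with all peaks. Col15a1 was held as 14 and 15 against 13 and 12 of 15 regions, Col18a1 as 9 and 8 against 8 and 7 of 9, and Col5a1 as 6 and 7 against 6 and 5 of 7. These genes instead supplied 4 of the 7 KO-only regions with the same number of peaks, 2 at Col5a1 and 1 each at Col15a1 and Col18a1. The others lay at Col4a3 (chr1:82641423-82641895, KO folds 8.19 and 7.30), Col14a1 (chr15:55463074-55463406, 8.07 and 9.61) and Col11a2. The Col15a1 one, chr4:47305201-47305683, had KO folds of 6.47 and 7.23. All 7 were held by both WT libraries among all peaks, so they were KO-only in the shortened lists alone.

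The experiments were set side by side, region by region, since they share no library. Of the 48 hCG-only regions, the WT libraries held 39 and 44 and the KO libraries 30 and 23. All 4 PR libraries held 21 (43.8%, against 39% at other genes), none held 3, and both WT but neither KO held 7 (14.6%, against 17.4%). Of the 24 PMSG-only regions the WT libraries held 18 and 12 and the KO libraries 5 and 8, and both WT but neither KO held 4 (16.7%, against 15.1%). Among equally long lists the 39 hCG-only regions were held 29 and 32 times in WT and 26 and 20 in KO, and the 31 PMSG-only regions 14 and 6 times in WT and 10 and 13 in KO. In both settings each PR library held a larger share of the hCG-only than of the PMSG-only regions, and the regions of other genes showed the same order, with all peaks 79%, 91%, 61.3% and 43% of hCG-only against 77.8%, 47.5%, 21.9% and 34% of PMSG-only regions in WT replicates 1 and 2 and KO replicates 1 and 2. Both WT but neither KO library held, in equally long lists, 4 of the 39 hCG-only regions (10.3%, against 5.9% at other genes) and 0 of the 31 PMSG-only regions (against 1.42%).

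The genes differed in this. The 6 hCG-only regions of the multiplexins were held 5 times in each of the 4 PR libraries. The 14 of Col4a1 and Col4a2 were held 13 and 13 times in WT and 10 and 6 in KO, and 6 of them by all 4. The 6 of Col27a1 were held by both WT libraries throughout and 2 and 1 times in KO, and 4 of the 7 collagen regions that were hCG-only and held by both WT but neither KO library lay there. The others were 2 at Col4a1 and Col4a2 and 1 at Col23a1. Those 4 are a description, since Col27a1 was singled out after its values were seen. Of all 35 WT-only regions, each hCG library held 10 (28.6%, against 44% and 37.8% at other genes) and no LH library held 16 (45.7%, against 33.8%). The 5 WT-only regions of Col27a1 were held 3 and 4 times by the hCG libraries and never by the PMSG libraries, whereas the 6 of the beaded filament genes were held 1 time by each hCG library and 4 and 5 times by PMSG.

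The enzymes and receptors of the collagen pathway were read in the same way. Collagen maturation needs prolyl and lysyl hydroxylases, chaperones, propeptide proteases and lysyl oxidases. Of 29 such genes, 28 had regions in the LH experiment, where 28 of 154 (18.2%) were hCG-only and 12 (7.79%) PMSG-only, near the 16.7% and 8.9% of other genes. Lists of equal length gave 24 and 17 of 150 (16% and 11.3%, against 14.7% and 11.7%). All 21 with a promoter entry had a start held in all 8 libraries, as did 58.6% of other genes. Bmp1, the protease that trims fibrillar procollagens, had 5 hCG-only and 3 PMSG-only of 15 regions, Plod2, which hydroxylates lysines for cross-links, 3 and 2 of 15, and the Bmp1 relative Tll1 3 and 0 of 8. Colgalt2, which adds galactose to hydroxylysine, had 1 and 3 of 9. In the PR experiment 15 of 164 (9.15%, against 11.8%) were WT-only and 0 KO-only, and 4 and 2 of 139 with the same number of peaks (2.88% and 1.44%, against 2.69% and 2.21%).

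The 10 collagen receptor genes had 7 hCG-only and 7 PMSG-only of 55 regions (12.7% each, against 16.7% and 8.9% at other genes), and 6 and 9 of 54 with the same number of peaks (11.1% and 16.7%, against 14.7% and 11.7%). Itga2, a collagen-binding integrin chain, had 3 and 2 of 12, its relative Itga1 had 0 and 2 of 12, and the receptor tyrosine kinase Ddr2 had 0 and 2 of 6. In the PR experiment the receptors had 3 WT-only of 66 (4.55%, against 11.8% at other genes), and with equally long lists 0 WT-only and 4 KO-only of 51 (7.84%, against 2.21%). The start of Itga11, another collagen-binding integrin chain, was held by both hCG libraries, WT replicate 2 and KO replicate 1, and by neither PMSG library.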

How the data were processed

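The authors deposited 1 narrowPeak list per library for all 8 libraries. The submitters' processing notes name Bowtie2, MACS2 and the build mm10, with versions not given in the sources used here. Peaks were called per library and not on pooled replicates. The deposited lists give a fold ratio over the local background and −log10 p and q per peak, as the peak caller wrote them, and the lowest −log10 q in any list was 10. The deposited score column was not used. Peak names of the PR lists mention filtering and marked duplicates and those of the LH lists do not, so folds of both experiments are printed side by side as descriptions and were not compared between experiments. Read depth is not in the lists and is unknown here, so an absent peak means a signal under the caller's threshold.

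Peaks sharing an interval were taken as 1, on chromosomes 1 to 19 and X. Intervals of an experiment's 4 libraries sharing at least 1 bp were merged into regions, and a region counted at a gene where it touched the gene body or 10 kb either side, and 1 time over a list. Python 3.11.15, pandas 2.3.3, NumPy 2.4.6, SciPy 1.17.1 and matplotlib 3.10.9 were used. Genes were matched by symbol to RefSeq (GRCm38.p6, the assembly mm10 denotes), and 35 of 44 collagen genes had a promoter sequence entry. The steps were tested on simulated data. Replicates are labelled as biological, and p-values across regions were not computed because regions are not replicates.

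The genes and lists were chosen with earlier results of these data known. Genes named by rule were those with 3 or more group-only regions in an experiment, the 5 with the most regions, those whose start 1 group alone held, and Col1a1, Col1a2, Col3a1, Col4a1, Col4a2 and Col18a1. Named regions were the 3 of each group-only set with the best mean rank, each of a different gene. Other genes and regions, and the row Col6a4 to Col6a6, were named after their values were seen. Alternatives were the same number of peaks, the 20000 best peaks, −log10 q of at least 20, 50% coverage of a region, the gene body alone, 50 kb flanks, the nearest gene only, and each library left out. Replicate numbers are shared across groups but no label ties them to a common animal, litter or day.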

Additional observations from a re-analysis of the deposited data

How the results depend on the processing

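Over the counts and shares for all collagen genes, 58 values under other settings stayed close to those reported, 13 moved and 1 changed sign. For counts, close means within a factor of 1.5, so 68 hCG-only regions under 50% coverage were close to 48. The difference in share, hCG minus PMSG, of 0.00431 with equally long lists was also classed as close to 0.017. For single genes and classes 926 stayed close and 218 moved. With the 20000 best peaks of each list there were 13 hCG-only (24.1%, against 12.9% at other genes) and 9 PMSG-only (16.7% against 11.7%) of 54 regions, 1 WT-only of 49 (2.04% against 1.52%), and 7 of 35 starts held in all 8 libraries (20% against 46.2%). With 50 kb flanks, a wider window, 74 of 379 regions (19.5%, against 17.2%) were hCG-only and 62 of 431 (14.4%, against 12.1%) WT-only. The difference in the share of intervals at collagen genes, hCG minus PMSG, was then 0.0313 percentage points against 0.017. Equally long lists left 6 regions WT-only and 7 KO-only, and the difference in share, WT minus KO, was -0.00359 against 0.0118. Leaving out each library, which loosens the group-only rule at any genes, gave 50 to 64 hCG-only and 25 to 32 PMSG-only regions. It gave 49 to 70 WT-only and 0 to 2 KO-only regions, and 18 to 19 starts held throughout. The differences in share were then 0.00785 to 0.0262 (hCG minus PMSG) and 0.00381 to 0.0197 (WT minus KO). With the replicate number as a block, the differences in share were 0.017 and 0.0118, the same by construction. The numbers did not pair the libraries: the correlation of the replicate differences between groups over all regions was 0.00994 in the LH and -0.0309 in the PR experiment. Beyond the loosened rule and the wider flanks, the cause of these shifts was not tested. With 2 libraries a group, presence in both is the only replicate check, and peak lists without read counts do not show how far an absent region lay under the threshold.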
